A study of Mus musculus with 12 samples.

Results

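The genes of prostaglandin synthesis, breakdown and reception were followed in cells of the mouse peritoneal cavity during LPS inflammation with and without lactoferrin. The members were the rows with the symbols Ptgs1, Ptgs2, Ptges, Ptgis, Tbxas1, Hpgds, Hpgd, Ptger2, Ptger4 and Ptgir, 10 of the 21851 genes used. RNA of peritoneal lavage cells was sequenced from C57BL/6J mice in 4 groups of 3 libraries. The groups were lactoferrin knockout mice given LPS, lactoferrin knockout mice given PBS, wild-type mice given LPS and wild-type mice given PBS, each by injection into the peritoneal cavity. LPS is the lipopolysaccharide of bacterial outer membranes, and PBS is the saline vehicle. Lactoferrin, encoded by Ltf, binds iron and is found in milk, tears and the secondary granules of neutrophils. All groups shared the strain and the route of injection. The sources used here do not give the dose, the time after injection, the age, the sex or the way the knockout was made, nor do they state whether each library came from a separate mouse. The p-values therefore measure the spread between libraries, which may be technical.

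Prostaglandins are lipid mediators made from arachidonic acid, which phospholipases free from membranes. The cyclooxygenases, Ptgs1 (constitutive in most tissues) and Ptgs2 (inducible by inflammatory stimuli), turn arachidonic acid into prostaglandin H2. Terminal synthases then make prostaglandin E2 (Ptges), prostacyclin (Ptgis), thromboxane A2 (Tbxas1) or prostaglandin D2 (Hpgds). Hpgd, the 15-hydroxyprostaglandin dehydrogenase, starts the inactivation of prostaglandin E2. Ptger2 and Ptger4 encode the EP2 and EP4 receptors of prostaglandin E2, and Ptgir the prostacyclin receptor, all of which raise cyclic AMP. Resident peritoneal macrophages are a classical source of prostacyclin and, once stimulated, of prostaglandin E2.

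Values were deposited per gene as what was taken to be FPKM, fragment numbers scaled by transcript length and library total, so levels of different genes can be set side by side. Library totals lay between 343874 and 388129 FPKM. Read numbers are unknown, and by the smallest steps of the values 11 libraries had 0.925 to 0.988 times the depth of the remaining one, wild-type PBS replicate 1. Ltf itself was at 0.117, 0.0832 and 0.0699 FPKM in knockout libraries under LPS, below the 0.176, 1.33 and 0.275 FPKM of wild-type libraries under LPS. Under PBS it was at 0.183, 0.258 and 0.213 FPKM in knockout libraries, below the 1.89, 1.23 and 1.16 FPKM of wild-type libraries. The third PBS library of wild type was unlike its mates, with a Spearman rho over genes of 0.949 and 0.934 to them, against at least 0.973 for every other pair within a group. Wild-type LPS replicate 2 and knockout LPS replicate 1 held the most erythroid RNA, with summed erythroid marker levels of 2226 and 1886 FPKM, against at most 330 FPKM (329.6) in the other libraries.

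With LPS 8 of the 9 tested members changed in the knockout and all 9 in wild type, where 53.2% and 62.2% of all tested genes were called. Hpgd and Ptger2 reached the filter on level, a mean of 1 FPKM or more over the 12 libraries, only through 1 treatment. These counts are therefore a description. Ptgs2 transcripts were 12.8-fold higher in knockout and 4.88-fold higher in wild-type libraries, by the ratio of group means. Ptgs1, Ptgis, Tbxas1 and all of the 3 receptor genes were lower, by between 1.73-fold (Ptger4 in wild type) and 7.96-fold (Ptgis in wild type). Hpgd was higher in both genotypes, and Ptges was higher in wild type but did not pass the test in the knockout. Between knockout and wild type no member passed the test under either treatment. Since lavage cells were measured in bulk, fewer cells of a type and less RNA per cell cannot be told apart.

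**Figure D1:**
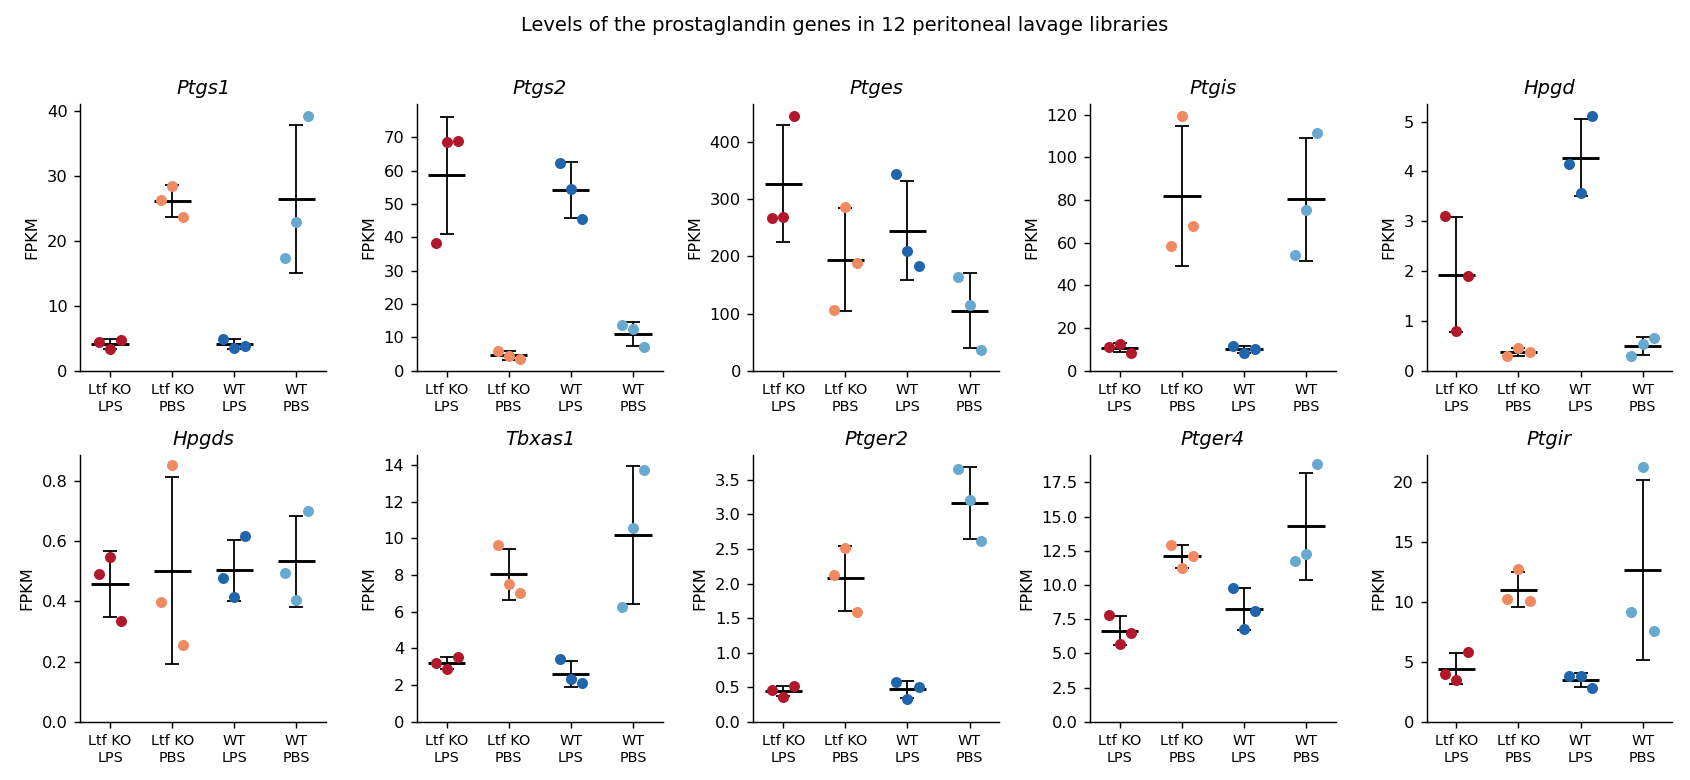
FPKM of each gene in every library, with group means as horizontal lines and SD as error bars (n = 3 per group). Ptgs2 and Hpgd were higher in all LPS libraries than in any PBS library, and Ptgs1, Ptgis, Tbxas1, Ptger2, Ptger4 and Ptgir were lower in all LPS libraries than in any PBS library. Of all tested genes, 66% in the knockout and 66.2% in wild type had LPS and PBS groups that did not overlap.

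The cyclooxygenase genes changed in opposite directions. In knockout libraries Ptgs2 stood at 38.3, 68.6 and 68.9 FPKM under LPS and at 5.89, 4.38 and 3.44 FPKM under PBS. Wild-type libraries had 62.2, 54.6 and 45.6 FPKM under LPS and at 13.7, 12.6 and 7.02 FPKM under PBS. Every LPS library was thus above every PBS library, and within PBS the knockout libraries all lay below those of wild type. The limma fold change of Ptgs2 with LPS was 3.39 ± 0.27 (SE) in the knockout, with an adjusted p of 4.46e-06, on the log2(FPKM + 1) scale, which shrinks the changes of low genes. In wild type it was 2.23 ± 0.27, with an adjusted p of 4.69e-05. Ptgs2 lies on chromosome 1 of GRCm38 at chr1:150100031-150108227, on the plus strand.

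Ptgs1 stood at 4.42, 3.29 and 4.69 FPKM under LPS and at 26.3, 28.4 and 23.6 FPKM under PBS in knockout libraries. The wild-type values were 4.92, 3.48 and 3.84 FPKM under LPS and at 17.3, 22.9 and 39.2 FPKM under PBS. The LPS groups of the genotypes overlapped, as did the PBS groups, and no LPS library reached a PBS library. The widest spread was in wild type under PBS, where replicate 3 was the highest library. Ptgs1 fell by 2.41 ± 0.24 in the knockout (adjusted p = 1.54e-05) and by 2.37 ± 0.24 in wild type (adjusted p = 1.29e-05), on the log2(FPKM + 1) scale by limma. Leaving out wild-type PBS replicate 3 kept the call of each cyclooxygenase in both genotypes. Ptgs1 lies at chr2:36230426-36252272 on the plus strand.

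The promoter windows of both cyclooxygenase genes are shown because their transcripts moved in opposite directions. Each runs 5′ to 3′ on the gene's strand from 250 bases before to 50 bases after the annotated start in RefSeq, GRCm38.p6. Ptgs2 is given for chr1:150099781-150100080 and Ptgs1 for chr2:36230176-36230475, both on the plus strand. Capitals mark matches, on either strand, to the searched motifs. These were the CRE half-site CGTCA, the E-box CACGTG, the C/EBP palindrome TTGCGCAA, the GC box GGGCGG, the PU box GAGGAA, the TATA box TATAAA, the AP-1 motif TGANTCA and the EGR motif GCGNGGGCG.
Ptgs2: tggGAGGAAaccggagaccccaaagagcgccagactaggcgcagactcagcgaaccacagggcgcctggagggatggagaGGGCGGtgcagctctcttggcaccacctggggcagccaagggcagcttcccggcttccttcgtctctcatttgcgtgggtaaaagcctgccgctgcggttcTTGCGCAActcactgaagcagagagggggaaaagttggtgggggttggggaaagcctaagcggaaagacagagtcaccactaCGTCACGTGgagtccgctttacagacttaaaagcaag
Ptgs1: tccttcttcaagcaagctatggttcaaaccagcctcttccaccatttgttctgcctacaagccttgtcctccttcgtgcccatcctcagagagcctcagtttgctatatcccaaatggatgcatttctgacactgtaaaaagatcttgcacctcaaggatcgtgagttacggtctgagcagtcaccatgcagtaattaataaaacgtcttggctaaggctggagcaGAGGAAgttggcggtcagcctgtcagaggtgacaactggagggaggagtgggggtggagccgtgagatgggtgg
In the Ptgs2 window the CRE half-site began at base 14 after the start and the E-box at base 17, so that they share 2 bases. Its C/EBP palindrome began at base -69, its GC box at base -170 and its PU box at base -247. The C/EBP palindrome was in 0.183% of all 32851 windows, the CRE half-site in 20.8%, the E-box in 7.15%, the GC box in 35.7% and the PU box in 28.3%. The Ptgs1 window held a PU box, at base -24, and no other match. The TATA box, AP-1 and EGR motifs, which are in 13.6%, 7.81% and 5.55% of all windows, had no match in either. A match describes the letters only, and binding was not measured.

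Ptges, the inducible microsomal prostaglandin E synthase, had the highest level of the 10 genes in every library but wild-type PBS replicate 3, where Ptgis and Ptgs1 were higher. In knockout libraries it stood at 267, 270.0 and 446 FPKM under LPS and at 107, 287 and 189 FPKM under PBS, and these groups overlapped. In wild-type libraries it stood at 344, 209 and 183 FPKM under LPS and at 165, 116 and 35.6 FPKM under PBS, and these groups did not overlap. The limma fold change on the log2(FPKM + 1) scale was 0.82 ± 0.52 in the knockout, with a 95% interval of -0.31 to 1.95 and an adjusted p of 0.2. Without knockout PBS replicate 1 it was 0.45, with an adjusted p of 0.529. In wild type Ptges was higher under LPS by 1.41 ± 0.52, with an adjusted p of 0.032. That call depended on single libraries. Without wild-type PBS replicate 3, the lowest, the change was 0.77 and the adjusted p 0.119, within a range of 0.0102 to 0.119 over the 21 alternative settings. The call was also lost without wild-type LPS replicate 1 (1.14, adjusted p = 0.113), without wild-type LPS replicate 2 (1.5, adjusted p = 0.0575) and without both libraries rich in erythroid RNA (1.5, adjusted p = 0.0729). The difference between the changes in the genotypes was -0.59 ± 0.73, with a 95% interval of -2.19 to 1.01 and an adjusted p of 0.817. It ran from -1.04 without wild-type PBS replicate 1 to 0.0497 without wild-type PBS replicate 3.

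The RefSeq promoter window of Ptges is shown for comparison with that of Ptgs2, the enzyme it is coupled with in inflammation. It covers chr2:30903248-30903547 on the minus strand of GRCm38.p6, and capitals mark matches to the same motifs.
Ptges: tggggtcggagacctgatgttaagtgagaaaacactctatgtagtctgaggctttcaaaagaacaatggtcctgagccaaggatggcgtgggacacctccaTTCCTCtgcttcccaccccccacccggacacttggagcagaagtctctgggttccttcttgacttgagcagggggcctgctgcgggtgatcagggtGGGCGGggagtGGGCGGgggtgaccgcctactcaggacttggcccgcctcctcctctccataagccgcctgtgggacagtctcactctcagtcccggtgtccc
It held GC boxes beginning at bases -53 and -42 and, on the other strand, a PU box at base -149. It had no CRE half-site, E-box or C/EBP palindrome of these letters. The gene is annotated at chr2:30889471-30929863 on the minus strand.

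Among the other terminal synthases the prostacyclin and thromboxane enzymes were lower with LPS, and the prostaglandin D2 synthase was near the limit of measurement. Ptgis stood at 11.3, 12.5 and 8.31 FPKM under LPS and at 58.2, 119 and 67.7 FPKM under PBS in knockout libraries. Wild-type libraries had 11.6, 8.47 and 10.3 FPKM under LPS and at 54.2, 75.4 and 111 FPKM under PBS. The lowest PBS library was thus several times the highest LPS library, and the genotypes overlapped within each treatment. Ptgis had the deepest fall of the 10 genes, by 2.77 ± 0.29 in the knockout (adjusted p = 2.29e-05) and by 2.82 ± 0.29 in wild type (adjusted p = 1.52e-05), on the log2(FPKM + 1) scale by limma. It lies at chr2:167191805-167240604 on the minus strand.

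Tbxas1, the thromboxane A2 synthase, stood at 3.19, 2.86 and 3.51 FPKM under LPS and at 9.63, 7.53 and 7.0 FPKM under PBS in knockout libraries. The wild-type values were 3.42, 2.31 and 2.10 FPKM under LPS and at 6.26, 10.5 and 13.7 FPKM under PBS. All LPS libraries were below all PBS libraries. The limma log2 fold change was -1.10 ± 0.23 in the knockout (adjusted p = 0.00191) and -1.59 ± 0.23 in wild type (adjusted p = 0.000127). Tbxas1 lies at chr6:38875404-39084585 on the plus strand and overlaps Hipk2 on the opposite strand, whose mean was 11.8 FPKM. Whether counting used strand is unknown here, so reads of the shared stretch cannot be told apart.

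Hpgds, the hematopoietic prostaglandin D synthase, was below 1 FPKM in all 12 libraries. It stood at 0.490, 0.549 and 0.334 FPKM under LPS and at 0.399, 0.852 and 0.255 FPKM under PBS in knockout libraries. In wild-type libraries it stood at 0.478, 0.416 and 0.616 FPKM under LPS and at 0.496, 0.405 and 0.701 FPKM under PBS. All 4 groups overlapped. Over both genotypes LPS and PBS differed by -0.03 in mean log2(FPKM + 1) (two-sided exact permutation within genotype, p = 0.8), and over both treatments knockout and wild type differed by -0.05 (two-sided exact permutation within treatment, p = 0.645). Each test used 400 relabellings, whose smallest p is 0.005. Hpgds is annotated at chr6:65117293-65144908 on the minus strand.

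Hpgd, the inactivating dehydrogenase, was higher with LPS in both genotypes, from a low level under PBS. In knockout libraries it stood at 3.11, 0.791 and 1.89 FPKM under LPS and at 0.288, 0.460 and 0.376 FPKM under PBS. Wild-type libraries had 4.16, 3.58 and 5.10 FPKM under LPS and at 0.291, 0.535 and 0.660 FPKM under PBS. Each LPS library was above each PBS library, and under LPS each knockout library was below each wild-type library. The ratio of group means was 5.15 in the knockout and 8.64 in wild type. Hpgd rose by 1.01 ± 0.24 in the knockout (adjusted p = 0.00461) and by 1.82 ± 0.24 in wild type (adjusted p = 8.2e-05), on the log2(FPKM + 1) scale by limma. It passed the filter on level only through the LPS groups, so its change with LPS is a description. Hpgd lies at chr8:56294585-56321043 on the plus strand.

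The receptor genes among the members were lower with LPS. Ptger2, which encodes EP2, stood at 0.461, 0.363 and 0.513 FPKM under LPS and at 2.12, 2.51 and 1.59 FPKM under PBS in knockout libraries. The wild-type values were 0.575, 0.325 and 0.502 FPKM under LPS and at 3.66, 3.21 and 2.62 FPKM under PBS. All LPS libraries lay below 1 FPKM and all PBS libraries above it, and under PBS the knockout libraries all lay below the wild-type ones. Ptger2 had a limma log2 fold change of -1.08 ± 0.14 in the knockout (adjusted p = 9.45e-05) and of -1.50 ± 0.14 in wild type (adjusted p = 8.22e-06). It passed the filter on level only through its PBS groups, so its change with LPS is a description. The gene lies at chr14:44988195-45003820 on the plus strand.

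Ptger4, which encodes EP4, was the receptor with the highest level under LPS and the smallest change. In knockout libraries it stood at 7.78, 5.67 and 6.51 FPKM under LPS and at 12.9, 11.3 and 12.1 FPKM under PBS. In wild-type libraries it stood at 9.81, 6.77 and 8.13 FPKM under LPS and at 11.7, 12.3 and 18.8 FPKM under PBS. The LPS and PBS groups did not overlap in either genotype. Ptger4 had a limma log2 fold change of -0.78 ± 0.18 in the knockout (adjusted p = 0.00322) and of -0.71 ± 0.18 in wild type (adjusted p = 0.00454). It lies at chr15:5206661-5244187 on the minus strand and overlaps Ttc33 on the opposite strand, whose mean was 7.43 FPKM, so reads of the shared stretch cannot be told apart.

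Ptgir, the prostacyclin receptor, stood at 4.0, 3.45 and 5.86 FPKM under LPS and at 10.3, 12.7 and 10.1 FPKM under PBS in knockout libraries. Wild-type libraries had 3.85, 3.82 and 2.81 FPKM under LPS and at 9.19, 21.3 and 7.56 FPKM under PBS. All LPS libraries were below all PBS libraries, and wild-type PBS replicate 2 was the highest. Its limma log2 fold change was -1.16 ± 0.30 in the knockout (adjusted p = 0.00649) and -1.48 ± 0.30 in wild type (adjusted p = 0.00118). Ptgir lies at chr7:16906490-16910905 on the plus strand. Enzyme and receptor of the prostacyclin branch, Ptgis and Ptgir, were thus both lower with LPS in both genotypes.

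Read against all genes, the members' changes stood in a broad response. LPS and PBS groups that did not overlap were common, at 66% of all tested genes in the knockout and 66.2% in wild type. In the knockout 2 members were called higher (Ptgs2 and Hpgd) and 6 lower among the 9 tested, where 19.9% of the 9841 tested genes were higher, 33.3% were lower and 53.2% were called in either direction. In wild type 3 were called higher (Ptgs2, Ptges and Hpgd) and 6 lower, where 24.8% of all tested genes were higher, 37.4% were lower and 62.2% were called in either direction. The median log2 fold change of the tested members was -1.08 in the knockout and -1.48 in wild type, beside -0.12 and -0.11 over all tested genes. Scaling the libraries by median of ratios brought the medians over all genes to -0.003 and -0.006 and evened the calls, with 2659 up and 2600 down in the knockout, against 1958 and 3277 without scaling. In wild type there were then 3054 up and 3124 down, against 2443 and 3680 without it. The counts of members called were the same under that scaling. Hpgd and Ptger2 passed the filter only through the treatment in which they were high, so these counts and the members' medians are a description. The members' median in the knockout was the value of Ptger2 itself.

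**Figure D2:**
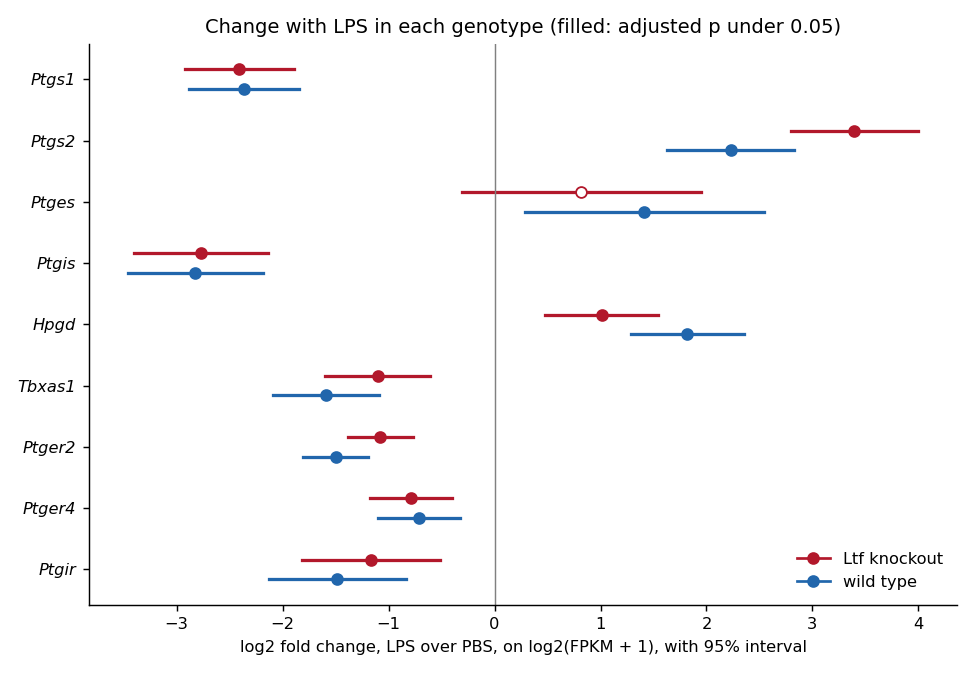
Log2 fold change of LPS over PBS on the log2(FPKM + 1) scale for the 9 tested genes, with 95% intervals from limma, knockout above wild type, filled where the adjusted p was under 0.05. Ptges in the knockout (0.82) is the only open point, and Ptgs2 has the highest fold change in the knockout (3.39) and in wild type (2.23).

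Cell-type marker lists held calls with the treatment too, to be read beside the 53.2% of all genes called in the knockout and the 62.2% in wild type. Of the 17 large peritoneal macrophage markers tested, 1 was higher and 11 lower with LPS in the knockout, and 1 was higher and 10 lower in wild type. Their summed level ran from 7916 to 10157 FPKM under LPS and from 12834 to 14967 FPKM under PBS in the knockout, and from 6368 to 9315 FPKM under LPS and from 9206 to 22527 FPKM under PBS in wild type. Lyz2 made up 82.5% of these sums. Gata6, the transcription factor that marks these macrophages, was measured in every library. Among the 14 neutrophil markers, 13 were tested, of which 1 was higher and 3 lower with LPS in the knockout and 11 were lower in wild type. Of the 11 B cell markers, 7 were lower in each genotype. Natural killer cell markers, 7 of them tested, had 3 higher and 1 lower in the knockout and 2 higher and 3 lower in wild type. Dendritic cell markers, 3 of them tested, had 2 higher and 0 lower in the knockout and 0 called in wild type. Of 10 tested markers of monocytes or small peritoneal macrophages, 2 were higher and 5 lower in the knockout and 2 were higher and 7 lower in wild type. Their summed level ran from 935 to 1394 FPKM under LPS and from 2354 to 2892 FPKM under PBS in the knockout, and from 980 to 1376 FPKM under LPS and from 1930 to 2692 FPKM under PBS in wild type, with no overlap between the treatments in either genotype. Fn1 made up 79.6% of the sums of the monocyte or small peritoneal macrophage list, so these describe Fn1 more than the list. Of 9 tested T cell markers, 3 were lower in the knockout and 9 in wild type. Their sums ran from 9.89 to 20.7 FPKM under LPS and from 20.4 to 29.0 FPKM under PBS in the knockout, and from 17.2 to 19.8 FPKM under LPS and from 42.3 to 56.5 FPKM under PBS in wild type.

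Mast cells and platelets are known sources of prostaglandin D2 and thromboxane A2. The summed level of 12 mast cell markers ran from 651 to 729 FPKM under LPS and from 699 to 1089 FPKM under PBS in the knockout, and from 841 to 850.5 FPKM under LPS and from 486 to 904 FPKM under PBS in wild type. The 9 platelet markers summed to between 1339 and 1744 FPKM under LPS and between 776 and 1236 FPKM under PBS in the knockout, and to between 934 and 1224 FPKM under LPS and between 841 and 1141 FPKM under PBS in wild type. Pf4, which was higher with LPS in the knockout by the test, made up 99.8% of these sums. Of the 9 markers only 2 passed the filter on level, so the sums describe Pf4 rather than the list. Markers of mesothelium, fibroblasts and vascular endothelium were low, at no more than 15.2 FPKM in sum in any library, and the eosinophil gene Epx was listed at 0 in all. The part of any of these cells in the changes of the prostaglandin genes was not tested.

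Knockout and wild type were compared within each treatment and no member was called. Under LPS limma called 0 of the 9 tested members and 0% of all genes, with an unadjusted p under 0.05 for 1 member and for 744 genes. The member was Hpgd, lower in the knockout by a log2 fold change of -0.92 ± 0.24, with an unadjusted p of 0.00286 and an adjusted p of 0.365. Without knockout LPS replicate 2 the fold change was -0.60, with an adjusted p of 0.292. Its mean was 1.93 ± 1.16 FPKM in the knockout and 4.28 ± 0.772 FPKM in wild type (SD, n = 3 each). Its groups did not overlap, which held for 15.4% of all tested genes. For the other 8 members the adjusted p was at least 0.738. The intervals under LPS ran from -0.50 to 0.53 for Ptgs1, from -0.53 to 0.68 for Ptgs2 and from -0.70 to 1.56 for Ptges. The Ptges difference under LPS was 0.18 without knockout LPS replicate 3, 0.24 without wild-type LPS replicate 3 and 0.70 without wild-type LPS replicate 1.

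Most neutrophil markers were higher in all knockout LPS libraries than in any wild-type LPS library, 11 of 14, while Csf3r, Trem1 and Camp overlapped. Of all 9841 tested genes, 495 were higher in this way, and 15.4% did not overlap in either direction. Ngp was apart by a narrow margin, 8.20 FPKM in the lowest knockout library against 8.12 FPKM in the highest wild-type library. S100a8 made up 40.7% of the summed level over all libraries. The sum was 2812, 754 and 2057 FPKM in knockout libraries and 182, 287 and 315 FPKM in wild-type libraries under LPS, and none of the 13 tested markers was called between genotypes by limma. Hpgd was lowest in knockout LPS replicate 2, which had the lowest neutrophil sum of the knockout LPS libraries. It was higher in every wild-type LPS library, where the neutrophil sums were lower still. A part of neutrophil RNA in the Hpgd values was not tested.

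Under PBS limma called 0 members, against 0.112% of all genes (11 genes, 2 higher and 9 lower in the knockout). An unadjusted p under 0.05 was found for 2 members and 897 genes. Ptgs2 averaged 4.57 ± 1.23 FPKM in the knockout and 11.1 ± 3.56 FPKM in wild type (SD, n = 3 each), a log2 fold change of -1.09 ± 0.27 with an unadjusted p of 0.00201 and an adjusted p of 0.243. Over the 21 alternative settings that adjusted p ran from 0.0526 to 0.789. Ptger2 averaged 2.07 ± 0.465 FPKM in the knockout and 3.16 ± 0.522 FPKM in wild type, a log2 fold change of -0.44 ± 0.14 with an unadjusted p of 0.00854 and an adjusted p of 0.386. The groups of both genes did not overlap, as was the case for 13.4% of all tested genes. Ptges had a log2 fold change of 1.02 ± 0.52, with an interval of -0.11 to 2.15 and an adjusted p of 0.571. Without wild-type PBS replicate 3 it was 0.38, with an adjusted p of 0.893. The other members' adjusted p was at least 0.732. Under PBS the neutrophil sums overlapped, at 3245, 1327 and 1389 FPKM in the knockout and 3492, 3086 and 2082 FPKM in wild type.

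**Figure D3:**
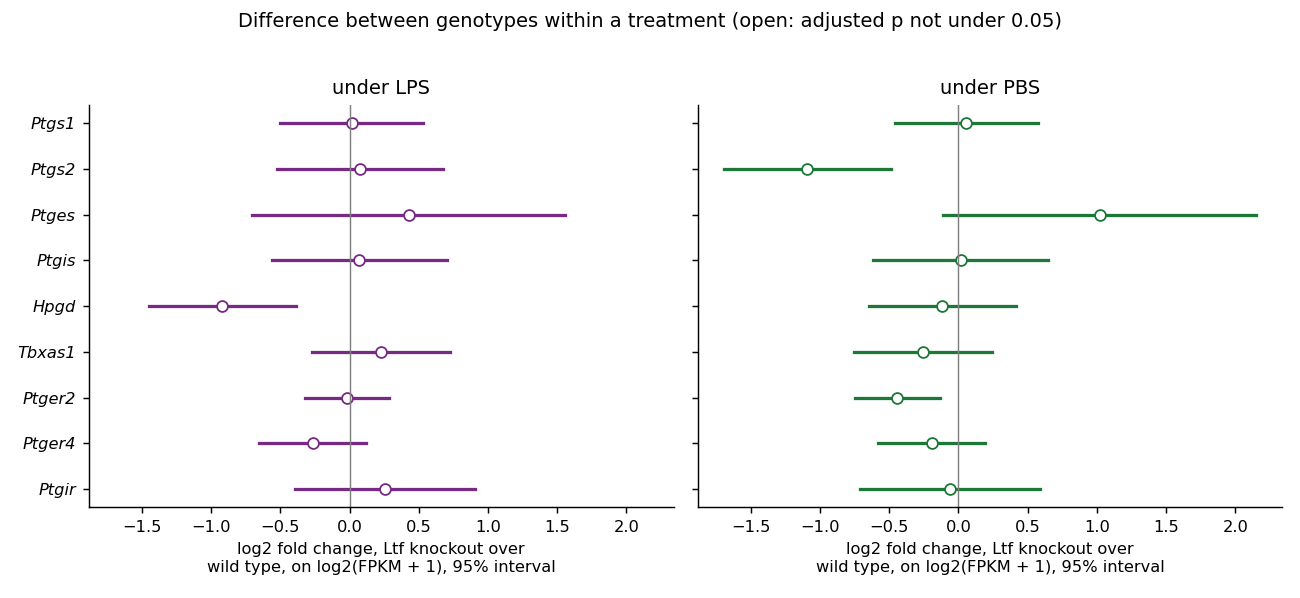
Log2 fold change of knockout over wild type on the log2(FPKM + 1) scale for the 9 tested genes under LPS (left) and under PBS (right), with 95% intervals from limma. All points are open because no adjusted p was under 0.05, and the unadjusted intervals of Hpgd under LPS and of Ptgs2 and Ptger2 under PBS do not reach 0.

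Whether the LPS response itself depended on lactoferrin was asked by the difference of the fold changes, knockout less wild type. No member was called by limma, against 0.0406% of all genes (4 genes), and an unadjusted p under 0.05 was found for 2 members and 946 genes. For Ptgs2 the difference was 1.17 ± 0.39, with a 95% interval of 0.32 to 2.02, an unadjusted p of 0.0115 and an adjusted p of 0.423. Its LPS groups overlapped between genotypes and its PBS groups did not. For Hpgd it was -0.80 ± 0.34, with an interval of -1.56 to -0.05, an unadjusted p of 0.0386 and an adjusted p of 0.496, and without knockout LPS replicate 2 it was -0.49, with an adjusted p of 0.465. For Ptger2 it was 0.42 ± 0.20, with an interval of -0.01 to 0.85 and an adjusted p of 0.525. The PBS libraries of a genotype enter both its LPS fold change and the PBS comparison, so these values are not independent.

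Levels of enzymes were also set against each other within each library, since FPKM is per length. The ratio of Ptgs2 to Ptgs1 was 8.67, 20.9 and 14.7 in knockout libraries under LPS and 0.224, 0.154 and 0.146 under PBS. In wild-type libraries it was 12.7, 15.7 and 11.9 under LPS and 0.790, 0.550 and 0.179 under PBS. Ptgs2 transcripts thus outnumbered Ptgs1 transcripts per length in every LPS library, and Ptgs1 outnumbered Ptgs2 in every PBS library. The ratio of Ptges to Hpgd, the enzymes that make and inactivate prostaglandin E2, was 85.9, 341 and 235 in knockout libraries under LPS and 370.5, 624 and 503 under PBS. In wild-type libraries it was 82.9, 58.5 and 35.8 under LPS and 565, 216 and 53.9 under PBS. The LPS libraries of the knockout were above those of wild type, and the LPS and PBS groups overlapped in wild type but not in the knockout. Both gaps were narrow, 85.9 against 82.9 between genotypes and 341 against 370.5 between treatments in the knockout. Hpgd, the divisor, was below 1 FPKM in every PBS library and in knockout LPS replicate 2. These ratios are descriptions with no test.

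**Figure D4:**
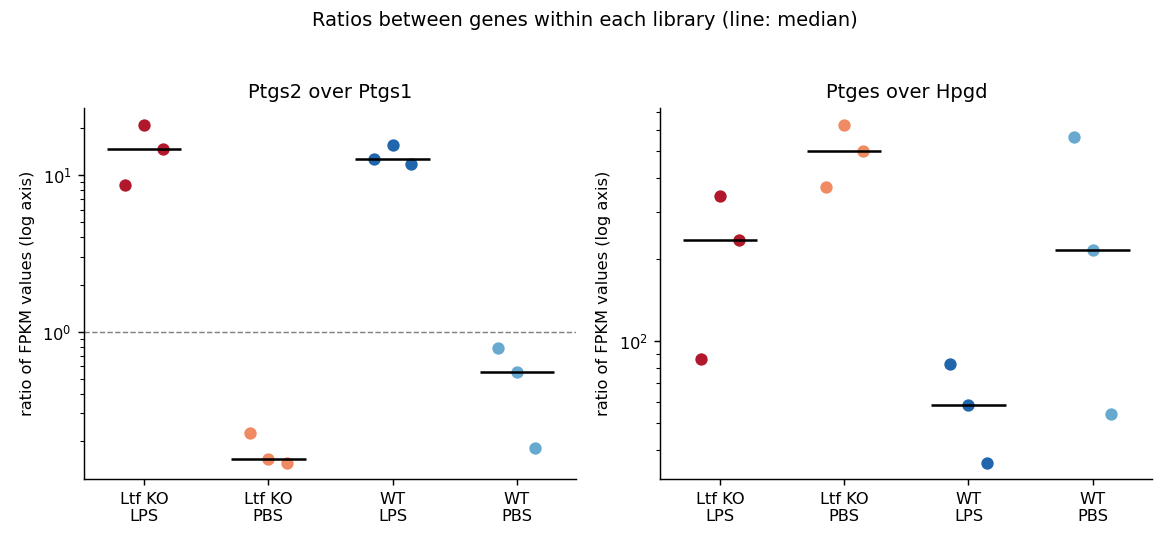
FPKM ratios of Ptgs2 to Ptgs1 (left) and of Ptges to Hpgd (right) in each library on a log axis, with the group median as a line. The first ratio is above 1, the dashed line, in all 6 LPS libraries and below it in all 6 PBS libraries.

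In order of group means, Ptgs2 was highest in the knockout under LPS (58.6 ± 17.6 FPKM) and next in wild type under LPS (54.1 ± 8.34 FPKM), which overlapped. Both stood apart from wild type under PBS (11.1 ± 3.56 FPKM), and that stood apart from the knockout under PBS. The mean of Ptges was 328 ± 102 FPKM in the knockout under LPS, 245 ± 86.6 FPKM in wild type under LPS, 194 ± 90.2 FPKM in the knockout under PBS and 105 ± 65.1 FPKM in wild type under PBS, and each neighbouring pair overlapped. Hpgd ran from wild type under LPS through the knockout under LPS to both PBS groups, and only the PBS groups overlapped. For Ptgs1, Ptgis, Tbxas1 and Ptgir the sole gap in the order lay between the PBS and the LPS groups. The same was true of Ptger4. For Ptger2 wild type under PBS stood above the knockout under PBS and both above the LPS groups, which overlapped.

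The genes whose levels ran most like each member over the 12 libraries were ranked by Pearson's r of log2(FPKM + 1), among 6517 genes of at least 5 FPKM on average. The points share the split between LPS and PBS, so r was also taken within the 6 libraries of each treatment. Ptgs2 was closest to Ch25h (0.981), Pim3 (0.980) and Ccl3 (0.979). Within LPS libraries these fell to 0.329, 0.209 and 0.342, and within PBS libraries they were 0.926, 0.967 and 0.959. Among the genes closest to Ptgs1 were Krt80 and Cgnl1 (0.997 each), with 0.854 and 0.873 within LPS and 0.980 and 0.982 within PBS. Ptges was closest to Ikbke (0.964), Ifi204 (0.963) and Slc39a14 (0.957), with 0.828, 0.932 and 0.939 within LPS and 0.975, 0.959 and 0.934 within PBS.

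Ptgis was closest to Commd8 (0.988), Ccnd1 and Baiap2 (0.987 each), with 0.533, 0.441 and 0.354 within LPS libraries and 0.808, 0.856 and 0.878 within PBS libraries. Tbxas1 was closest to Camk1 and Ppt1 (0.983 each) and Klhl9 (0.980), and Hpgd to Pmm2 (0.952), Rnd3 (0.939) and Ccnk (0.926). For Hpgd the likeness within PBS libraries, where it was below 1 FPKM, was 0.459, 0.549 and 0.048. Among the receptors, Ptger2 was closest to Atp6v0a1 (0.978), Sypl (0.976) and Clec4n (0.973), which had r of at most 0.409 within LPS libraries. Ptger4 was closest to Rbsn (0.972), Fam234a and Gstm1 (0.971 each), and Ptgir to Prmt2 (0.978), Dnajb4 (0.977) and Bnip2 (0.969). Ptger4's 3 genes held r of at least 0.859 within either treatment. Nothing about shared control was measured.

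Upstream of the cyclooxygenases, 19 genes of arachidonate release were in the files and 9 were tested. With LPS 2 were higher and 4 lower in the knockout, and 2 were higher and 5 lower in wild type. The higher genes were Pla2g4a, the cytosolic phospholipase that supplies the cyclooxygenases, and Pla2g12a, a secreted phospholipase, both named after their values were seen. Pla2g4a averaged 26 FPKM under LPS and 12.9 FPKM under PBS in the knockout, and 27.7 FPKM under LPS and 14.9 FPKM under PBS in wild type, with limma log2 fold changes of 0.97 (adjusted p = 0.00875) and 0.91 (adjusted p = 0.0102). Dagla, a diacylglycerol lipase that makes the endocannabinoid 2-arachidonoylglycerol, averaged 0.729 ± 0.0802 FPKM under LPS and 7.38 ± 1.41 FPKM under PBS in the knockout. In wild type it averaged 0.494 ± 0.0173 FPKM under LPS and 3.43 ± 0.697 FPKM under PBS (SD, n = 3 each). Its log2 fold change was -2.26 ± 0.14 in the knockout and -1.55 ± 0.14 in wild type, a description, since Dagla passed the filter only through its PBS groups.

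Dagla was also 1 of the 11 genes called between genotypes under PBS, higher in the knockout by 0.92 ± 0.14 with an adjusted p of 0.0411 by limma. That call was lost under 15 of 20 alternative settings, over which its adjusted p ran from 0.0335 to 0.456. Pla2g15, a lysosomal phospholipase, had log2 fold changes with LPS of -1.03 ± 0.23 in the knockout and -1.96 ± 0.23 in wild type. Abhd12, a serine hydrolase that degrades 2-arachidonoylglycerol and lysophospholipids, had -0.75 ± 0.24 and -1.09 ± 0.24, of which the call in the knockout was lost under 6 of 21 settings and the value in wild type was -0.70 without wild-type PBS replicate 3.

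Of 11 other terminal synthases and related reductases 6 were tested, with 1 higher and 3 lower in each genotype. The higher one was Ptges3, the cytosolic prostaglandin E synthase and Hsp90 co-chaperone p23, named after its values were seen. It averaged 148 FPKM under LPS and 90.1 FPKM under PBS in the knockout, and 135 FPKM under LPS and 81.6 FPKM under PBS in wild type. Its call was lost under 5 of 21 settings in the knockout and 2 of 21 in wild type, and the wild-type fold change of 0.78 was 0.48 without wild-type PBS replicate 3. Fam213b, a prostamide and prostaglandin F synthase, had log2 fold changes of -1.82 ± 0.27 in the knockout and -1.53 ± 0.27 in wild type. The carbonyl reductase Cbr3 had -0.96 ± 0.16 and -1.44 ± 0.16, also a description, since it passed the filter on level only through its PBS groups. Cbr1, which can reduce prostaglandin E2, had -0.55 ± 0.20 and -1.25 ± 0.20. The call of Cbr1 in the knockout (adjusted p = 0.0398) was lost under 9 of 20 settings.

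Most other prostanoid receptors were barely measured. Of 8 in the files only Ppard, a nuclear receptor proposed to bind prostacyclin, passed the filter. It averaged 6.49 ± 0.478 FPKM under LPS and 6.68 ± 0.758 FPKM under PBS in the knockout (log2 fold change -0.03 ± 0.12, adjusted p = 0.822). In wild type it averaged 5.23 ± 0.247 FPKM under LPS and 10.1 ± 1.6 FPKM under PBS (log2 fold change -0.83 ± 0.12, adjusted p = 0.000109). The difference between these changes was 0.79 ± 0.16, with an adjusted p of 0.15. Ptgfr, the prostaglandin F receptor, was listed at 0 in every library and is named after its values were seen. Tbxa2r and Ptger3, below the filter and not tested, are also named after their values were seen. Tbxa2r averaged 0.07 FPKM under LPS and 1.12 FPKM under PBS in the knockout, and 0.15 and 1.70 FPKM in wild type. Ptger3 went the other way, with 0.65 FPKM under LPS and 0.19 FPKM under PBS in the knockout, and 1.17 and 0.24 FPKM in wild type.

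Of 8 genes of prostaglandin transport and further breakdown 7 were tested, with 0 higher and 1 lower in the knockout and 0 higher and 3 lower in wild type. Zadh2, a prostaglandin reductase, fell in both, with log2 fold changes of -1.35 ± 0.24 in the knockout and -1.40 ± 0.24 in wild type. Ptgr1 and Ptgr2, which reduce the keto products that Hpgd makes, were called lower in wild type only, at -0.84 ± 0.23 and -0.75 ± 0.16, with -0.55 and -0.39 in the knockout (adjusted p = 0.0629 and 0.0585). The differences between genotypes in these changes had adjusted p of 0.798 and 0.616. In wild type Hpgd, the first enzyme of breakdown, was called higher while these 3 later enzymes were called lower. Hpgd passed the filter on level only through its LPS groups, so this contrast is a description. Of all tested genes 24.8% were called higher and 37.4% lower in wild type.

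All 22 genes listed as regulators of Ptgs2 and Ptges were tested. With LPS 7 were higher and 5 lower in the knockout, and 7 were higher and 7 lower in wild type. Cebpd, which encodes a C/EBP factor, averaged 48.1 ± 12.1 FPKM under LPS and 13.3 ± 1.6 FPKM under PBS in the knockout, and 32.2 ± 6.17 FPKM under LPS and 14.4 ± 3.0 FPKM under PBS in wild type. Its log2 fold changes were 1.75 ± 0.20 and 1.11 ± 0.20. Anxa1, the glucocorticoid-induced inhibitor of phospholipase A2, averaged 29.5 ± 4.98 FPKM under LPS and 111 ± 27.1 FPKM under PBS in the knockout, and 25.0 ± 6.02 FPKM under LPS and 105 ± 20.4 FPKM under PBS in wild type, with log2 fold changes of -1.86 ± 0.21 and -2.03 ± 0.21. Fos, a subunit of AP-1, had -1.59 ± 0.44 and -2.93 ± 0.44.

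Egr1, an immediate early factor reported to drive Ptges transcription, was the regulator called between genotypes and is named after its values were seen. It averaged 15.4 FPKM under LPS and 13 FPKM under PBS in the knockout, and 9.30 FPKM under LPS and 25.5 FPKM under PBS in wild type. Under PBS it was lower in the knockout by a log2 fold change of -0.93 ± 0.14 (limma, adjusted p = 0.0411). The difference of its LPS changes was 1.59 ± 0.20 (limma, adjusted p = 0.0344). The first call was lost under 16 of 21 settings, with adjusted p of 0.0369 to 0.353, and the second under 11 of 20, with adjusted p of 0.0184 to 0.159.

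Most called genes of the cyclic AMP pathway that EP2, EP4 and the prostacyclin receptor feed were lower. The list holds both adenylyl cyclases and phosphodiesterases, so its counts give no direction of signalling. Of 24 genes 17 were tested, with 2 higher and 10 lower in the knockout and 2 higher and 12 lower in wild type. Adcy7, an adenylyl cyclase of leukocytes, averaged 3.05 ± 0.551 FPKM under LPS and 17.2 ± 1.20 FPKM under PBS in the knockout, and 3.87 ± 0.172 FPKM under LPS and 17 ± 1.27 FPKM under PBS in wild type. Its log2 fold changes were -2.17 ± 0.11 and -1.88 ± 0.11. Arrb1, a beta-arrestin that uncouples receptors, had -2.11 ± 0.33 and -2.80 ± 0.33, and the phosphodiesterase Pde2a had -1.86 ± 0.37 and -2.17 ± 0.37. The lists were chosen with earlier results of these data known, and their counts stand beside the 19.9% higher and 33.3% lower of all genes in the knockout and the 24.8% and 37.4% in wild type.

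**Figure D5:**
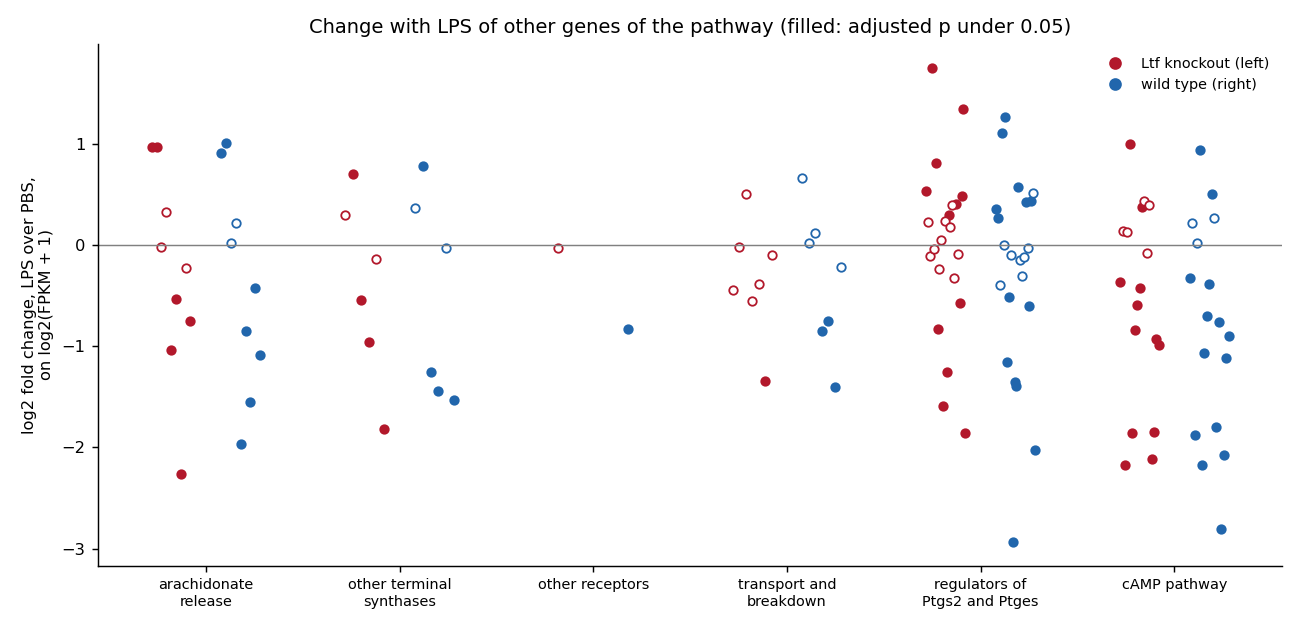
Log2 fold change of LPS over PBS on the log2(FPKM + 1) scale for the tested genes of 6 lists around the prostaglandin genes, knockout at left and wild type at right within each list, filled where the adjusted p was under 0.05. In the cyclic AMP list 10 of 17 points in the knockout and 12 of 17 in wild type are filled below 0.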

How the data were processed

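The labels describe peritoneal lavage cells whose total RNA was extracted with a kit and sequenced. Groups and replicate numbers were taken from the labels, 4 groups of 3. Knockout libraries are called wild type in their titles but knockout in their codes and characteristics, and these were used. Each library's table, as deposited by the authors, pairs gene symbols with values taken here as FPKM from their range, since no unit is stated. The submitters' processing notes name TopHat, Cufflinks, HTSeq, DESeq and GRCm38, without version or role. The sources used here do not give filters, annotation or use of strand.

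Of 21878 rows, 27 whose symbol had become a date were dropped. FPKM holds no read count, so counting intervals cannot be given. Steps of values below 0.2 FPKM gave relative depth, with 9.36% to 18.3% of genes within 2% of the commonest ratio, and whole reads could not be recovered. The filter on level, a mean over the 12 libraries of 1 FPKM or more, left 9841 of 21851 genes to test. Limma 3.58.1 in R 4.3.3 (trend, robust) was fitted to log2(FPKM + 1) of all 4 groups, with 8 residual degrees of freedom. Tests were two-sided, adjusted by Benjamini-Hochberg over all tested genes within a comparison, with a threshold of 0.05. Hpgds, below the filter, had exact permutation tests. The fit was checked on simulated data. Promoter windows were matched by symbol for 9 of the 10 members (RefSeq, GRCm38.p6), and gene positions came from GENCODE on GRCm38. Figures were drawn with matplotlib 3.10.9 in Python 3.11.15. All members were named, then up to 3 called genes of each pathway list with the largest change with LPS, and the 3 genes most like each member, of which 1 is not reported here. Members and lists were chosen with earlier results of these data known. Alternatives changed the pseudocount, filter, scaling, samples fitted, variance model and replicate block, and left out libraries.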

Additional observations from a re-analysis of the deposited data

How the results depend on the processing

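Over 21 alternatives (20 for the difference of LPS responses), the number of members called lay between 6 and 8 in the knockout (8 as reported) and between 7 and 9 in wild type (9 as reported). The lowest counts came with a filter at 5 FPKM, which takes Hpgd and Ptger2 out of the test. No member was called between genotypes, or for the difference of LPS responses, under any alternative. In the LPS comparisons all 374 recomputed fold changes of members kept their direction, and 6, all of Ptges in wild type, lost the call. Besides the settings given above these were no filter on level (adjusted p = 0.0595) and fitting only the groups compared (adjusted p = 0.0585), within a range of 0.0102 to 0.119 over the alternatives; the cause was not tested. Counts over all genes moved more. They ran from 3659 to 5803 (5235 as reported) for LPS in the knockout and from 4242 to 7276 (6123) in wild type. Between genotypes they ran from 0 to 29 (0) under LPS, from 0 to 39 (11) under PBS and from 0 to 49 (4) for the difference of LPS responses.

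Small genotype differences changed sign. With 1 library left out, the difference under LPS ran from -0.0707 to 0.139 for Ptgs1, from -0.0641 to 0.351 for Ptgs2, from -0.0415 to 0.228 for Ptgis and from -0.0912 to 0.0338 for Ptger2. Under PBS it ran from -0.20 to 0.37 for Ptgs1, from -0.29 to 0.28 for Ptgis, from -0.33 to 0.36 for Ptgir and from -0.31 to 0.0095 for Ptger4. The difference of LPS responses ran from -0.36 to 0.21 for Ptgs1, from -0.21 to 0.36 for Ptgis, from -0.28 to 0.0459 for Ptger4, from -0.10 to 0.59 for Ptgir and from -1.04 to 0.0497 for Ptges. Without the libraries rich in erythroid RNA the difference under LPS was -0.115 for Ptgs1 and -0.0838 for Ptgis, and the difference of LPS responses was -0.0993 for Ptgis. For Hpgds the LPS difference was 0.0171 with median-of-ratios scaling and ran from -0.0866 to 0.0537 with 1 library left out, and the genotype difference ran from -0.126 to 0.0148. None of these passed a test in either direction.

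Replicate numbers are shared between groups, but same-numbered libraries did not deviate together, with correlations of their deviations from -0.25 to 0.19. With the replicate block, 8 members were called in the knockout, 9 in wild type and 0 in the other comparisons, and over all genes 3 instead of 11 under PBS and 0 instead of 4 for the difference of LPS responses. Of 40 group levels of members, 0 moved by more than 1 SD with median-of-ratios scaling. Depth is known only relative to other libraries, and the reads behind the levels below 1 FPKM, those of Hpgds, of Hpgd under PBS and of Ptger2 under LPS, are unknown.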
